A study of Mus musculus with 2 samples.

Results

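Toll-like receptors and transglutaminase 2 were followed in cells of pancreatic islets from NOD mice with gluten in their diet or without it. The genes were Tlr2, Tlr4, Tlr7 and Tlr9, the co-receptor Cd14, the adaptor Myd88 and Tgm2. They were chosen by name as pattern receptor genes and the transglutaminase linked to responses to gluten, with earlier results of these data known. These are 7 of the 31053 gene rows that both count tables hold, and all 7 were found in both. The cells came from 15-week-old WT NOD mice (NOD/ShiLtJ, a strain prone to autoimmune diabetes), whose islets were freed with collagenase, picked by hand and dispersed with trypsin. Their RNA was counted cell by cell with the 10x Genomics 3' v3 chemistry. The diet of the gluten group held 16% HC and 4% gluten, and that of the other group held 20% HC, a component whose name the labels do not expand. Cells of 3 mice were pooled into 1 library per diet, so mice cannot be told apart and there is no replicate.

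Toll-like receptors are sensors of microbial and damaged-cell molecules. Tlr2 and Tlr4 act at the cell surface, for bacterial lipoproteins and lipopolysaccharide, and Cd14 hands lipopolysaccharide to Tlr4. Tlr7 and Tlr9 act in endosomes, for single-stranded RNA and unmethylated DNA, and Myd88 couples these receptors to the kinases that start NF-kappa-B signalling and cytokine genes. Tgm2 crosslinks proteins and deamidates gluten peptides, and it is the autoantigen of human coeliac disease.

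With gluten, Cd14 was at least 2-fold higher in macrophage-like, cDC2-like and cDC1-like cells (cDC1 and cDC2 are the classes of conventional dendritic cells), and Tlr2 in cDC2-like and T-like cells. Molecules were few for Cd14 in cDC1-like cells (20 with gluten and 6 with HC alone) and for Tlr2 in T-like cells (15 and 11). For Cd14 in macrophage-like cells, passing the 2-fold mark depended on 1 subcluster that was nearly absent from the HC alone library. Without it Cd14 was 1.97-fold higher with gluten. Tgm2 was at least 2-fold higher in delta-like cells, on 31 and 8 molecules, and Tlr4 was lower in B-like cells, on 3 and 27 molecules. Tgm2 was highest in mesenchymal-like cells and Cd14 in ductal-like cells in either library. Summed over each class, Myd88 was within 2-fold in the 11 classes where it was measured. Its mean over macrophage-like subclusters with equal weight was over 2-fold higher with gluten. That mean gives a shallow subcluster with few Myd88 UMIs the same weight as the others. With 1 library per diet there was no test, and the 95% intervals in brackets cover counting error only.

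In the mm10 annotation Tlr2 (ENSMUSG00000027995) lies at chr3:83836272-83841767 on the minus strand, Tlr4 (ENSMUSG00000039005) at chr4:66827584-66930284 on the plus strand, and Tlr7 (ENSMUSG00000044583) at chrX:167304929-167330558 on the minus strand. Tlr9 (ENSMUSG00000045322) lies at chr9:106222598-106226883 on the plus strand and Myd88 (ENSMUSG00000032508) at chr9:119335934-119341411 on the minus strand. Tgm2 (ENSMUSG00000037820) lies at chr2:158116402-158146436 on the minus strand. The gene ID of Cd14 is ENSMUSG00000051439. Myd88 overlaps Slc22a14 on its own strand and Acaa1a on the other, and Tgm2 overlaps Rprd1b and Gm20412 on the other strand, so their counts carry that uncertainty. No overlap was found for the others.

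RefSeq promoters (build GRCm38.p6, 250 bases before to 50 bases after the gene's RefSeq start) matched 3 of the 7 genes, Tlr2, Tlr9 and Myd88. Those of Tlr2 and Myd88 are shown because these genes stand at opposite ends of the results, Tlr2 varying widely between cell classes and Myd88 being read in nearly all of them. They are chr3:83841559-83841858 and chr9:119339969-119340268, both from the minus strand and printed 5' to 3'. The RefSeq start of each lies inside the gene span given above. The Myd88 window is thus wholly within that span and the Tlr2 window partly. Capitals mark matches, searched on both strands, to 4 motifs: an NF-kappa-B-type motif (GGG, then any bases at 2 positions, then TTTCC), an interferon-response-type motif (GAAA, any bases at 2 positions, GAAA), a PU.1-type motif (GAGGAA) and an AP-1-type motif (TGANTCA).
Tlr2: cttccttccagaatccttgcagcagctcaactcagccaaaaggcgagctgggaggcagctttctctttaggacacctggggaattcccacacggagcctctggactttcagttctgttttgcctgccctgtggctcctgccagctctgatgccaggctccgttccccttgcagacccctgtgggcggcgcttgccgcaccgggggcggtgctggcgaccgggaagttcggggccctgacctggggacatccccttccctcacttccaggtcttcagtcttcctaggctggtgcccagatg
Myd88: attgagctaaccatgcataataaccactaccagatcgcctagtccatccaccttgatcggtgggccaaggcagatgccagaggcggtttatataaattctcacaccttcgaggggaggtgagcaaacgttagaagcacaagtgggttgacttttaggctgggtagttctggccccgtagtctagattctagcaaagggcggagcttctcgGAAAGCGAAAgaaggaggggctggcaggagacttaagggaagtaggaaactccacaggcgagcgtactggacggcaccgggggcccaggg
The Myd88 promoter held 1 match, to the interferon-response-type motif. It begins 40 bases before the gene's RefSeq start and overlaps no other match. This motif was found in 3.44% of the 32851 promoters of the same length in the table. The Tlr2 window held none of the 4 motifs as spelled above. Other spellings of such sites were not searched, so the window may hold them. The NF-kappa-B-type motif was found in 1.63%, the PU.1-type one in 28.3% and the AP-1-type one in 7.81% of promoters. A match is a run of letters and not a measured site.

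UMIs are molecules told apart by a random tag. There were 88268070 UMIs in 8200 barcodes with gluten and 116900677 UMIs in 7758 barcodes with HC alone. The libraries shared 15 barcodes. After filters on cells and doublets 7122 cells with a median of 6399 UMIs remained with gluten and 7111 cells with a median of 5448 UMIs with HC alone. Clusters were named from marker genes that include none of the 7 genes, and 12 classes held at least 50 cells in each library. In each of these 12 classes the median depth of cells was lower with gluten, and in macrophage-like cells the medians were 5492 UMIs with gluten and 12484.5 UMIs with HC alone. Beta-like cells fell into clusters that were mostly of 1 library, since cluster 10 held 943 of them with gluten and 81 with HC alone, and cluster 9 held 146 and 1017. The class named cDC1-like has the mature dendritic cell gene Fscn1 among its top 10 genes, and the class named cDC2-like has only 1 of its own markers there, Mgl2. Of the 268 and 222 cDC2-like cells, 132 with gluten and 104 with HC alone fell into a cDC2-like subcluster when myeloid cells were clustered again. Another 54 and 32 fell into the unnamed, shallow subcluster 3 (medians of 947 and 1193.5 UMIs), with acinar genes in its top 10. The unnamed subcluster 13, with T cell and B cell genes in its top 10, held 29 and 32, and a T-like subcluster 14 and 20. Monocyte-like and other subclusters held the rest, with 8 and 10 in the monocyte-like one. The part of these cells in the results was not tested.

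Over the kept cells Cd14 gave 1576 UMIs with gluten and 1141 with HC alone, Tlr2 gave 1146 and 1024, and Tgm2 gave 994 and 966. Myd88 gave 898 UMIs with gluten and 1148 with HC alone. Tlr4 was rarer, with 71 UMIs with gluten and 117 with HC alone, as was Tlr7, with 58 and 60. Tlr9 gave 4 UMIs with gluten and 9 with HC alone, too few for a comparison in any class. Levels are given as CPM, the UMIs of a gene scaled to a common total of UMIs over the class in that library. UMIs count 3' ends, and levels are compared between classes and diets for 1 gene at a time.

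**Figure D1:**
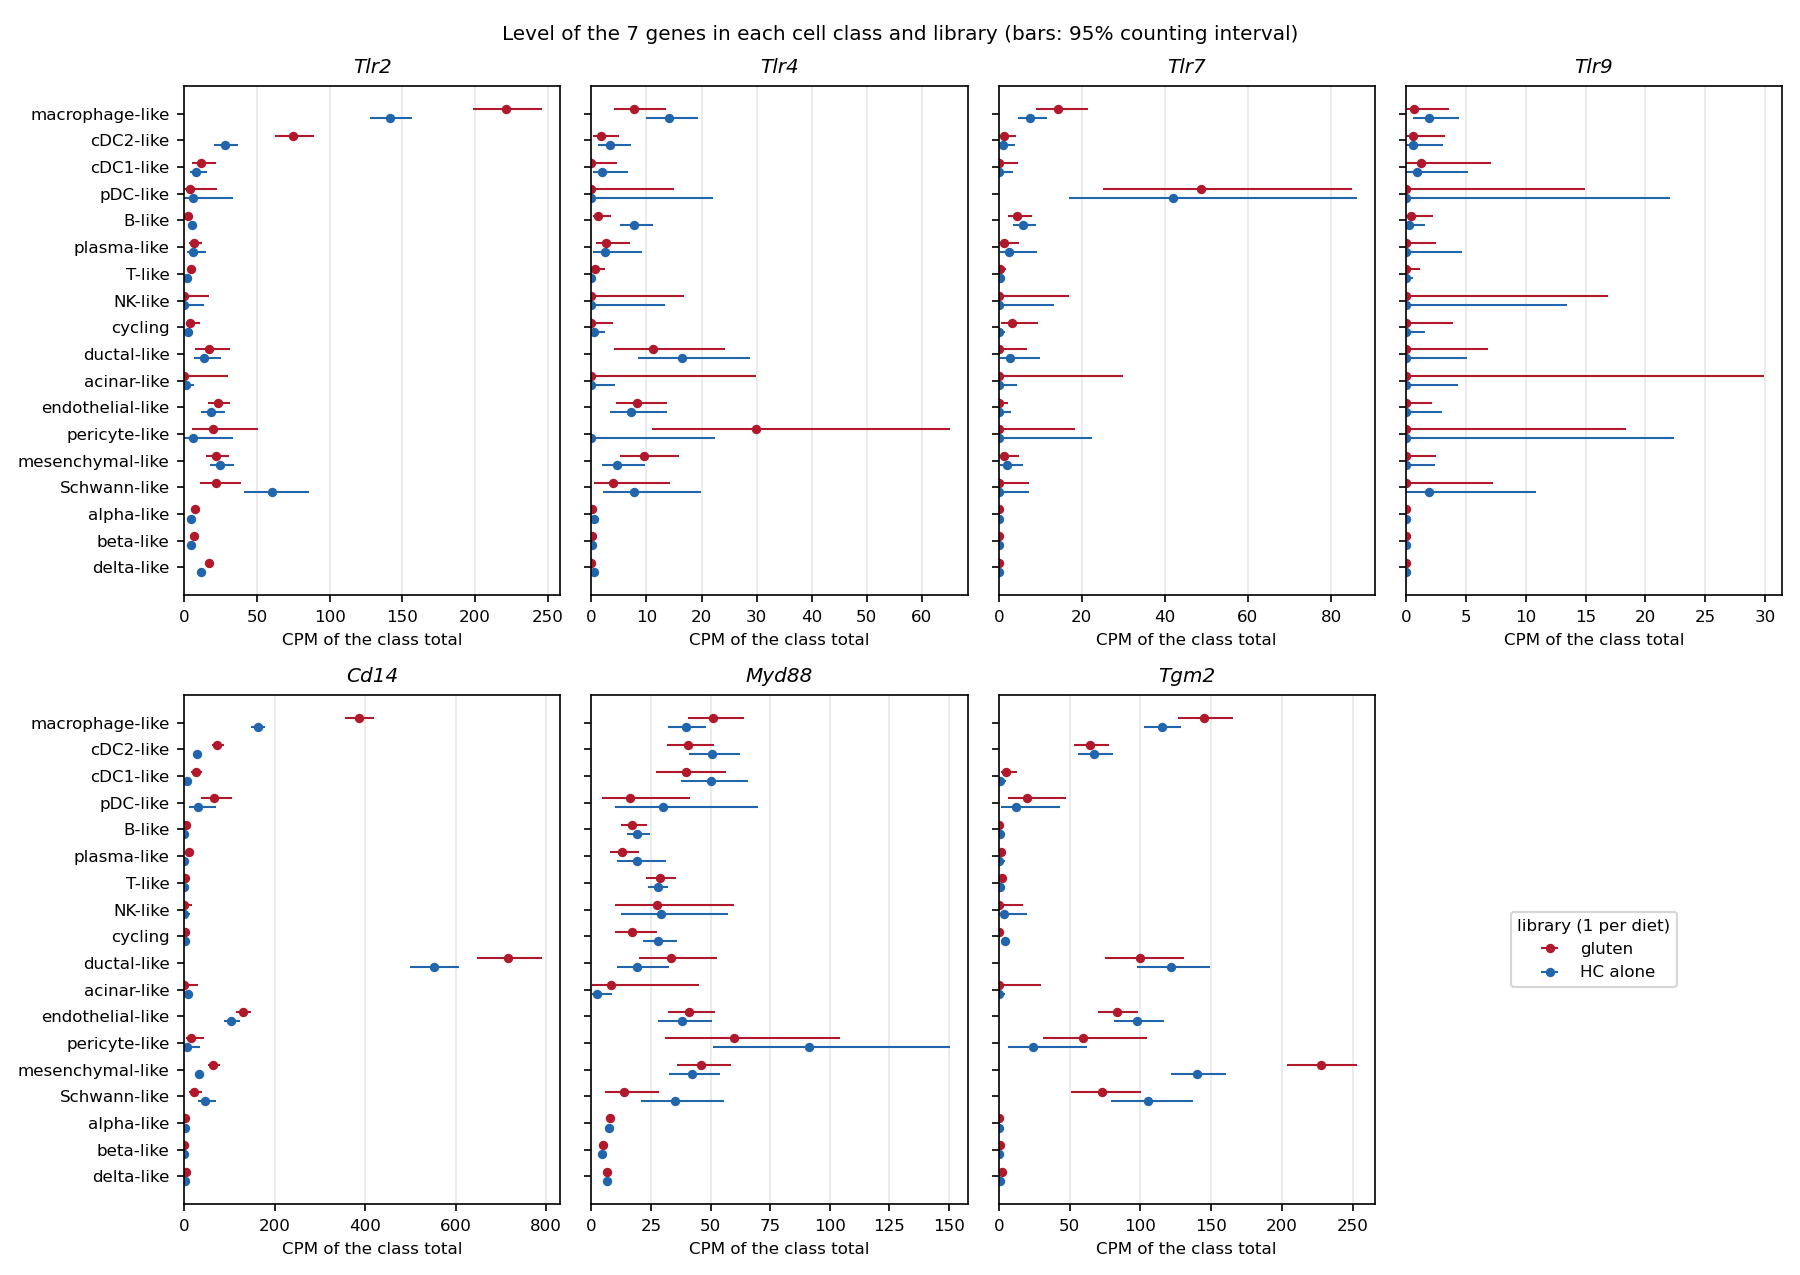
CPM of each of the 7 genes (horizontal axis, linear, its own range in each panel) in 18 cell classes (vertical axis), with gluten above HC alone within a class. Points are the summed level of 1 library and bars the 95% Poisson interval. Tlr2 reaches 221.6 CPM with gluten and 141.8 CPM with HC alone in macrophage-like cells, and Cd14 reaches 716.7 and 551.1 CPM in ductal-like cells.

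Of 84 pairs of a gene and a class, 39 were measured, with at least 20 UMIs over both libraries. At 2-fold or more with an interval that excludes 0, 6 of the 39 pairs were higher with gluten (15.4%) and 1 was lower (2.56%). Over all 112123 measured gene and class pairs, the same rule called 2.67% higher and 2.84% lower. The genes were chosen with earlier results of these data known, so these shares are set side by side as a description only. The pairs higher were Cd14 in macrophage-like, cDC2-like and cDC1-like cells, Tlr2 in cDC2-like and T-like cells, and Tgm2 in delta-like cells. The pair lower was Tlr4 in B-like cells.

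**Figure D2:**
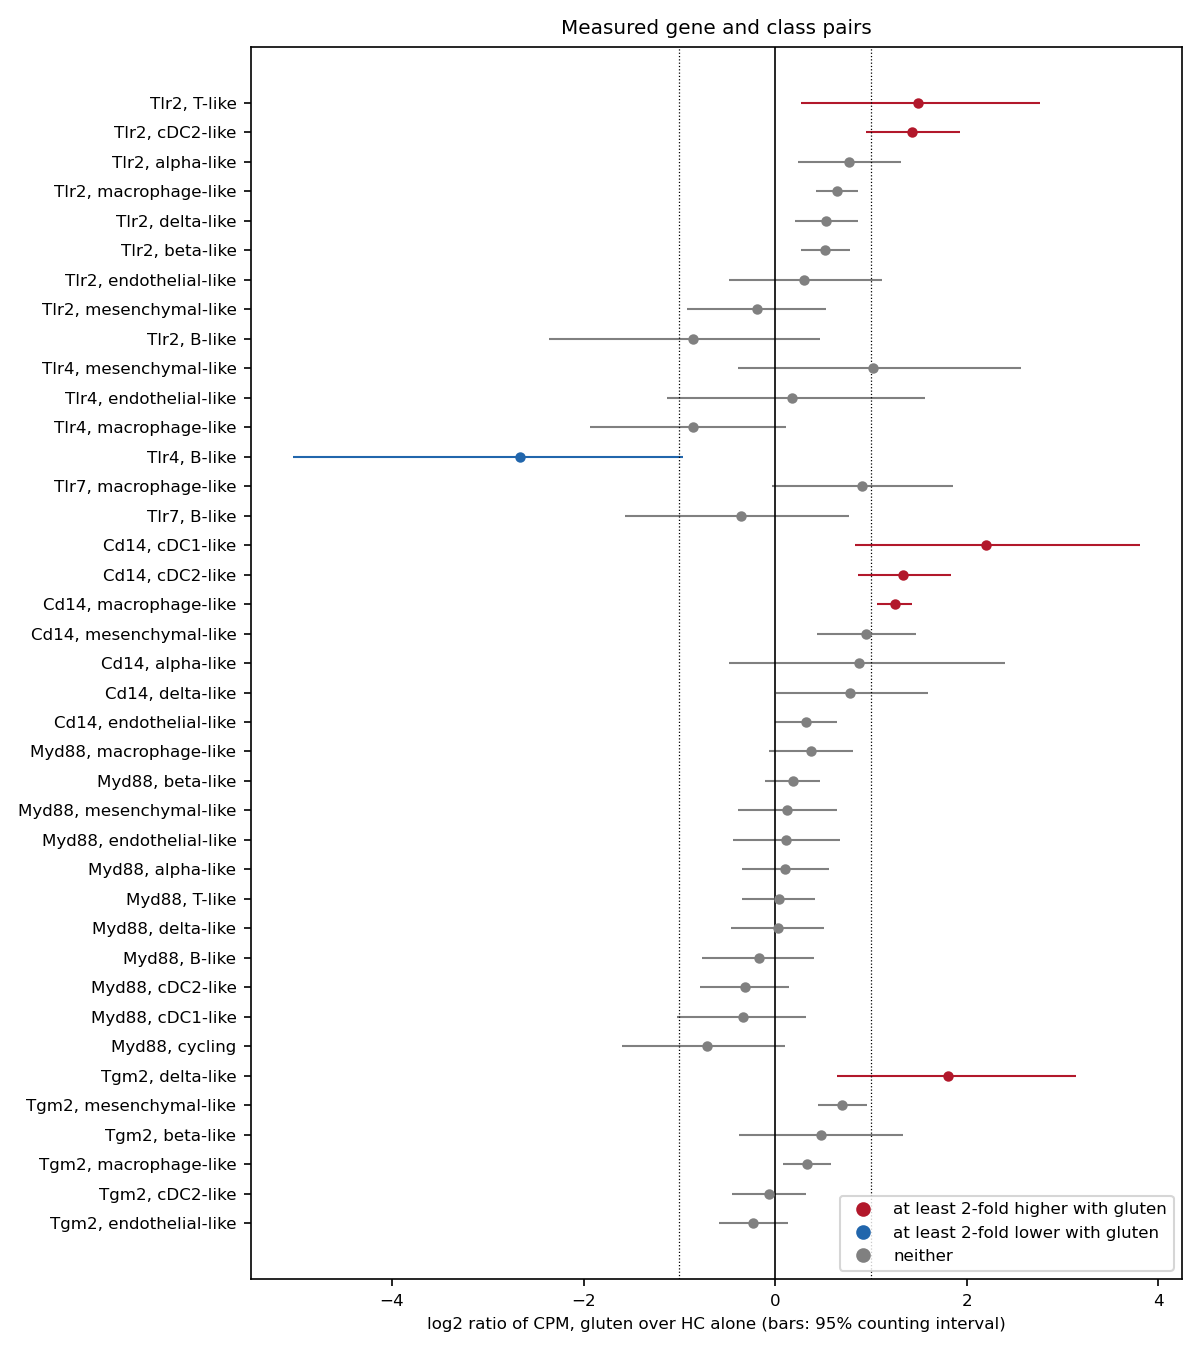
Log2 ratio of CPM, gluten over HC alone, for the 39 measured gene and class pairs, with 95% intervals from counting error and dotted lines at 2-fold. Red points (6) are at least 2-fold higher with gluten and the blue point (1) at least 2-fold lower. All 3 dendritic and macrophage-like classes are red for Cd14, and no Myd88 point passes either line.

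Among the surface receptors, Tlr2 was highest in macrophage-like cells in either library. It stood at 221.6 CPM [198.7, 246.4] with gluten and 141.8 CPM [127.8, 157.0] with HC alone, a log2 ratio of 0.64 [0.43, 0.86]. The intervals of these 2 levels do not overlap, and the ratio is under 2-fold. In cDC2-like cells Tlr2 stood at 74.9 CPM (129 UMIs) with gluten and 27.8 CPM (50 UMIs) with HC alone, a log2 ratio of 1.43 [0.95, 1.93]. Of all measured genes of this class 2.68% were called higher. Endothelial-like cells, at 22.9 CPM with gluten and 18.6 CPM with HC alone, and mesenchymal-like cells, at 21.7 and 24.8 CPM, had intervals that overlap each other. Schwann-like cells, a class of 60 and 41 cells that was too small for the comparison, had 21.7 CPM of Tlr2 (11 UMIs) with gluten and 60.5 CPM (31 UMIs) with HC alone, second to macrophage-like cells in the HC alone library. Cd14 and Myd88 were lower with gluten in these cells too, at 11 and 24 UMIs and at 7 and 18 UMIs.

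Tlr2 was also read in endocrine cells. Delta-like cells gave 17.02 CPM with gluten and 11.8 CPM with HC alone (log2 ratio 0.53 [0.20, 0.87]), alpha-like cells 7.34 and 4.32 CPM (0.77 [0.23, 1.32]), and beta-like cells 6.56 and 4.57 CPM (0.52 [0.27, 0.78]). The intervals exclude 0 in these 3 classes, with ratios under 2-fold. Beta-like cells held 23.7% of all Tlr2 UMIs, against 32.9% in macrophage-like cells. C1q transcripts, which mark macrophage-like cells, were read beside it. At the ratio of Tlr2 to C1qa, C1qb and C1qc in macrophage-like cells, the C1q UMIs of beta-like cells would carry 4.06 Tlr2 UMIs with gluten and 5.71 with HC alone. Counted were 236 and 279. This comparison was added after seeing the data. Here and below, the part of free RNA or doublets in the counts was not tested. Within the beta-like cluster led by the interferon-response gene Gm4841 among its top genes (cluster 11), Tlr2 stood at 14.1 CPM with gluten and 5.57 CPM with HC alone, a log2 ratio of 1.34 [0.84, 1.83]. In the other 2 beta-like clusters the ratio was -0.01 [-0.82, 0.71] and -0.05 [-0.86, 0.89].

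Tlr2 was rare in lymphocytes. T-like cells gave 15 UMIs (4.93 CPM) with gluten and 11 UMIs (1.75 CPM) with HC alone, a log2 ratio of 1.49 [0.27, 2.76], where 3.54% of the class's measured genes were called higher and 3.52% lower. Of these, 10 and 3 UMIs came from 1 of the 5 T-like clusters. The 10 B cell markers were all higher in T-like cells with gluten, at 99.6 CPM in sum against 23.1 CPM with HC alone, and their part in the result was not tested. B-like cells gave 7 UMIs with gluten and 18 with HC alone. NK-like cells gave 0 UMIs of Tlr2 in 81 cells with gluten and in 70 with HC alone, which allows a share of cells with a UMI of up to 3.70% and 4.29%.

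Tlr4 was low throughout. Macrophage-like cells gave 7.78 CPM (12 UMIs) with gluten and 14.1 CPM (37 UMIs) with HC alone, a log2 ratio of -0.86 [-1.93, 0.12] that did not exclude 0. B-like cells gave 1.22 CPM (3 UMIs) with gluten and 7.75 CPM (27 UMIs) with HC alone, a log2 ratio of -2.66 [-5.03, -0.96], where 4.64% of the class's measured genes were called lower. Different clusters held most B-like cells in each library, cluster 1 with 782 cells with gluten and 313 with HC alone and cluster 2 with 166 and 791. The direction was the same in both, on 2 UMIs with gluten and 7 with HC alone in cluster 1 (-2.89 [-6.19, -0.50]) and on 1 and 20 UMIs in cluster 2, where the interval did not exclude 0 (-2.21 [-7.58, 0.44]). Acinar markers summed to 1097 CPM with gluten and 110.2 CPM with HC alone in B-like cells, all 15 higher, and their part in the result was not tested. Ductal-like cells gave 11.1 CPM with gluten and 16.5 CPM with HC alone, endothelial-like cells 8.22 and 7.27 CPM, and mesenchymal-like cells 9.49 and 4.69 CPM. With at most 14 UMIs per library in these classes, the intervals of all 3 pairs overlap. Pericyte-like cells gave 6 UMIs with gluten (29.9 CPM, the highest level in that library) and 0 with HC alone, where 3 UMIs would be 18.2 CPM.

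Cd14, the co-receptor, was highest in ductal-like cells, a small class of 31 cells with gluten and 27 with HC alone. It stood there at 716.7 CPM [647.1, 791.8] with gluten and 551.1 CPM [498.4, 607.8] with HC alone, and was read in 30 of the 31 cells (96.8%) and 24 of the 27 cells (88.9%). Ductal-like cells held 4 and 10 UMIs of C1q, which at the ratio of macrophage-like cells would carry 0.0747 and 0.0785 Cd14 UMIs, against 387 and 400 counted. These few cells held 29.0% of all Cd14 UMIs, and macrophage-like cells 37.7%. Endothelial-like cells followed macrophage-like cells, at 129.8 CPM with gluten and 104.2 CPM with HC alone (log2 ratio 0.32, with a lower bound of -0.00 and an upper bound of 0.64).

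In macrophage-like cells Cd14 stood at 386.2 CPM [355.8, 418.5] with gluten and 162.8 CPM [147.7, 178.9] with HC alone, a log2 ratio of 1.25 [1.07, 1.43], where 2.9% of the class's measured genes were called higher. Without subcluster 11, a choice made after seeing the data, it was 317.7 CPM with gluten and 160.9 CPM with HC alone, 0.98 [0.78, 1.18], which is under 2-fold. In cDC2-like cells it stood at 73.1 CPM (126 UMIs) with gluten and 28.9 CPM (52 UMIs) with HC alone, a log2 ratio of 1.34 [0.86, 1.83]. In cDC1-like cells it stood at 25.6 CPM (20 UMIs) with gluten and 5.58 CPM (6 UMIs) with HC alone, a log2 ratio of 2.20 [0.83, 3.80], where 3.05% of the class's measured genes were called higher. B cell markers summed to 78.1 CPM with gluten in cDC1-like cells, against 5.58 CPM with HC alone, where 7 of the 10 were at 0. Mesenchymal-like cells gave 64.4 CPM of Cd14 with gluten and 33.5 CPM with HC alone, a log2 ratio of 0.94 [0.43, 1.47] just under 2-fold.

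Endocrine cells held almost no Cd14. Beta-like cells gave 7 UMIs with gluten and 6 with HC alone, and their C1q UMIs at the ratio of macrophage-like cells would carry 7.08 and 6.55. The shares of beta-like cells with a Cd14 UMI were 0.411% with gluten and 0.393% with HC alone, at medians of 27016 and 36769.5 UMIs per cell. In delta-like cells 42 UMIs were counted with gluten and 22 with HC alone, against 27.7 and 9.76 at that ratio. NK-like cells gave none in either library.

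Other RNA moved with the diet in the same classes. The 18 immediate early genes, a list added after seeing the data, which react to stress and to dissociation, summed to 9581 CPM with gluten and 5319 CPM with HC alone in macrophage-like cells and were all higher with gluten there. They summed to 8528 and 6327 CPM in cDC2-like cells (15 of 18 higher), 7499 and 4396 CPM in cDC1-like cells (17 of 18), 12355 and 5457 CPM in delta-like cells (18 of 18) and 12684 and 5461 CPM in mesenchymal-like cells (18 of 18). The 15 acinar markers summed to 278.0 CPM with gluten and 54.4 CPM with HC alone in macrophage-like cells, all higher with gluten, and 362.8 and 53.9 CPM in cDC2-like cells. The 8 beta cell markers summed to 8815 and 20078 CPM in macrophage-like cells, 1 of them higher with gluten. No marker of these lists was at 0 in macrophage-like cells. The part of this RNA in the results was not tested.

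Shares of macrophage-like cells with a UMI of Cd14 or Tlr2 turned once cells were thinned and shallower ones left out. As sequenced, 59.7% of 248 macrophage-like cells had a Cd14 UMI with gluten and 65.1% of 212 with HC alone, a difference of -5.42 percentage points. With each cell thinned to 1640 UMIs, and shallower cells left out, the shares were 43.0% of 186 cells with gluten and 23.4% of 201 cells with HC alone, a difference of 19.6 points [10.3, 28.6]. More of the cells with gluten were left out. The shallow subcluster 0, described below, held 60 of the macrophage-like cells with gluten and 15 with HC alone. Its medians were 914 and 965 UMIs, with few Cd14 UMIs, and its part in the turn was not tested. Tlr2 was read in 53.6% with gluten and 67.0% with HC alone as sequenced, and in 32.3% and 24.4% after thinning, a difference of 7.88 points [-1.09, 16.7] that did not exclude 0. In cDC2-like cells thinned to 2201 UMIs Tlr2 was read in 13.9% with gluten and 2.75% with HC alone, a difference of 11.2 points [5.77, 16.9]. For Cd14 in the same cells the shares were 12.4% and 6.59%, and the difference of 5.84 points [-0.15, 11.8] did not exclude 0.

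**Figure D3:**
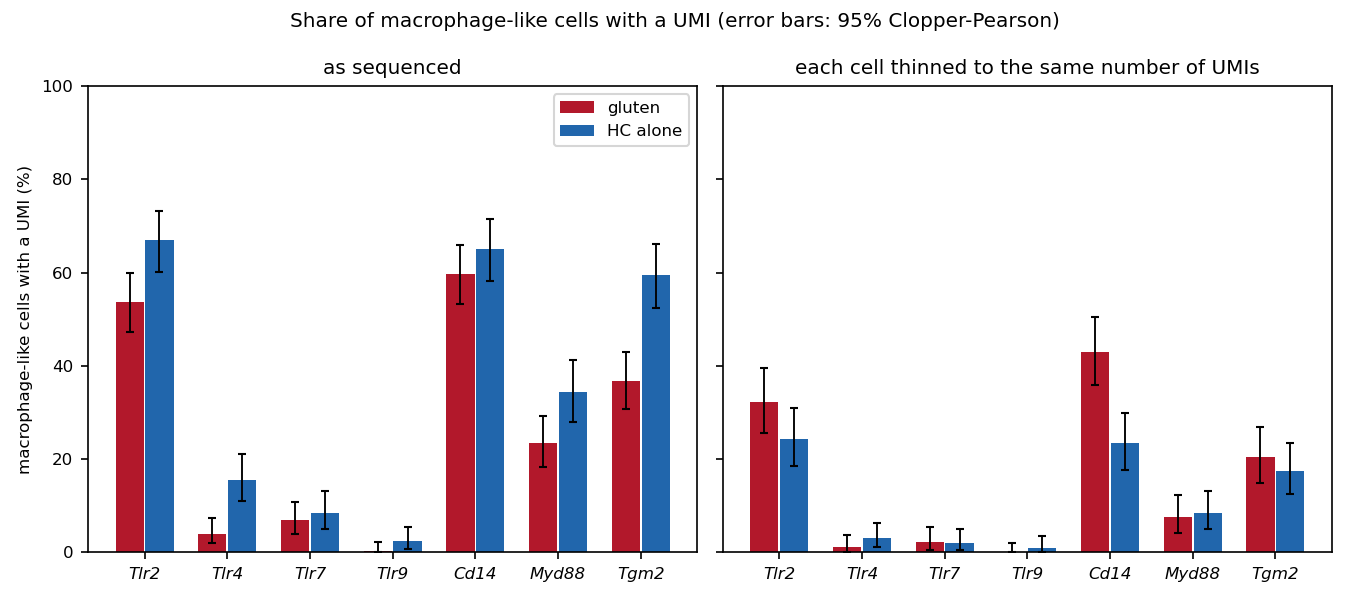
Percent of macrophage-like cells with at least 1 UMI of each gene as sequenced (left) and with each cell thinned to 1640 UMIs (right). Shallower cells are left out on the right. Gluten stands left of HC alone, with 95% Clopper-Pearson intervals. For Cd14 the order turns, since HC alone is the higher as sequenced (59.7% with gluten and 65.1% with HC alone) and gluten after thinning (43.0% and 23.4%). The order turns for Tlr2 too.

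Myeloid cells were clustered again, which split the macrophage-like cells. Of the 248 with gluten and 212 with HC alone, 37 and 52 fell into the monocyte-like subcluster and 11 and 7 into the cycling one. Subcluster 11, with Mmp12, Ccl3, Ccl4 and Cxcl2 among its top 10 genes, held 47 cells with gluten and 3 with HC alone, and with gluten had 832.2 CPM of Cd14 and 379.6 CPM of Tlr2. Subcluster 4, with C3ar1 among its top genes, held 54 and 85 cells and gave 270.2 CPM of Cd14 with gluten and 190.4 CPM with HC alone (log2 ratio 0.50 [0.18, 0.83]). Subcluster 9, led by Pf4, held 34 and 45 cells and gave 319.7 CPM of Cd14 with gluten and 100.05 CPM with HC alone (1.68 [1.23, 2.13]). The shallow subcluster 0 held 62 cells with gluten and 17 with HC alone at medians of 914 and 965 UMIs, with 3 and 2 Cd14 UMIs. Means were then taken with equal weight for subclusters 0, 4 and 9, the 3 named macrophage-like with at least 15 cells in each library. The monocyte-like subcluster does not enter these means. Subcluster 0, where Cd14 had the lower CPM with gluten, counts as much in them as each of the others despite its few UMIs. Cd14 averaged 212.2 CPM with gluten and 132.2 CPM with HC alone, a log2 ratio of 0.68 with 2 of the 3 higher. Tlr2 averaged 117.5 and 121.4 CPM, a log2 ratio of -0.05, although it was higher with gluten in 2 of the 3. On the same mean Myd88 stood at 62.2 CPM with gluten and 22.4 CPM with HC alone (1.47, 3 of 3 higher, with 5 and 0 UMIs in subcluster 0), Tlr7 at 15.3 and 6.75 CPM (1.18, 2 of 3 higher) and Tgm2 at 128.5 and 81.1 CPM (0.66, 2 of 3 higher).

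The monocyte-like subcluster of 47 and 62 cells gave 499.1 CPM of Cd14 with gluten and 174.1 CPM with HC alone (1.52 [1.16, 1.88]), and 268.5 and 140.2 CPM of Tlr2 (0.94 [0.50, 1.38]). The cDC2-like subcluster gave 93.7 CPM of Tlr2 with gluten and 30.8 CPM with HC alone (1.61 [0.95, 2.31]) and 88.7 and 35.5 CPM of Cd14 (1.32 [0.69, 1.99]). The cDC1-like subcluster gave 42.1 CPM of Cd14 (17 UMIs) with gluten and 7.27 CPM (4 UMIs) with HC alone (2.53 [0.92, 4.56]). In mature dendritic-like cells, 20 with gluten and 32 with HC alone, Cd14 gave 0 and 7 UMIs and Tlr2 0 and 8 UMIs. Over all 14 myeloid subclusters Cd14 had the higher CPM with gluten in 10 and the lower in 4, with an interval above 0 in 6 and below 0 in 0. The 4 were subclusters 0 and 8, the cycling subcluster (66.0 CPM with gluten and 81.6 CPM with HC alone, -0.31 [-1.01, 0.40]) and subcluster 7, of 10 and 7 cells led by hormone genes (11.3 and 39.6 CPM, -1.81 [-5.04, 0.42]).

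**Figure D4:**
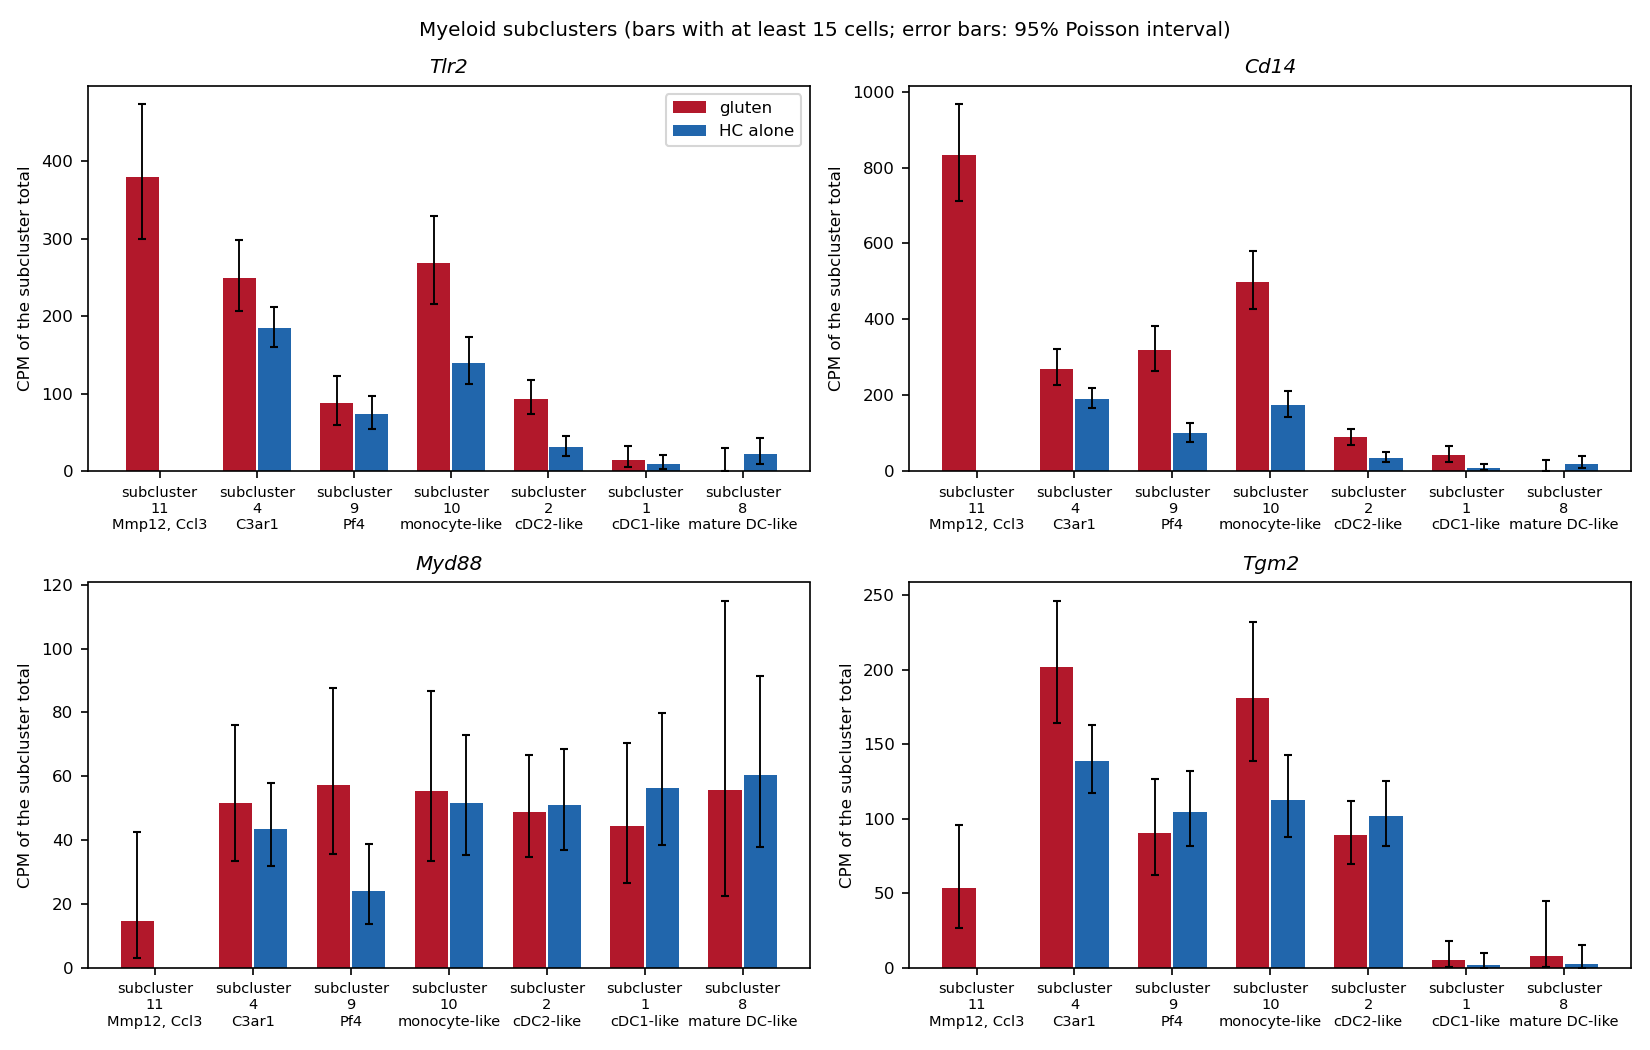
CPM of Tlr2, Cd14, Myd88 and Tgm2 in myeloid subclusters, gluten left of HC alone, with 95% Poisson intervals; bars need at least 15 cells, which leaves out HC alone in subcluster 11. Cd14 with gluten reads 832.2 CPM in subcluster 11, 270.2 in subcluster 4 and 319.7 in subcluster 9, against 190.4 and 100.05 CPM with HC alone in subclusters 4 and 9.

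Tlr2 and Cd14 were often read in the same cells. Depth differed widely between macrophage-like cells, and its part in these counts was not tested. Of 248 macrophage-like cells with gluten, 107 had UMIs of both, 26 of Tlr2 alone, 41 of Cd14 alone and 74 of neither. Of 212 with HC alone, 110 had both, 32 Tlr2 alone, 28 Cd14 alone and 42 neither. A UMI of any of the 4 Toll-like receptors was read in 56.0% of macrophage-like cells with gluten and 75.5% with HC alone, at the depths given above, and in 30.2% and 20.3% of cDC2-like cells.

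Among the endosomal receptors, Tlr7 was highest in pDC-like cells (plasmacytoid dendritic cells, known for Tlr7 and Tlr9). They gave 48.6 CPM (12 UMIs in 31 cells) with gluten and 41.8 CPM (7 UMIs in 20 cells) with HC alone, with intervals that overlap. Macrophage-like cells gave 14.3 CPM (22 UMIs) with gluten and 7.61 CPM (20 UMIs) with HC alone, a log2 ratio of 0.91 [-0.03, 1.86] that did not exclude 0. B-like cells gave 4.48 CPM with gluten and 5.74 CPM with HC alone, a log2 ratio of -0.36 [-1.56, 0.77]. Alpha-like, beta-like, endothelial-like and NK-like cells gave 0 UMIs of Tlr7 in either library. Tlr9 was read in 0 of 31 pDC-like cells with gluten and 0 of 20 with HC alone, which allows shares of up to 9.68% and 15.0%. Macrophage-like cells gave 1 Tlr9 UMI with gluten and 5 with HC alone, and B-like cells 1 and 1.

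Myd88, the shared adaptor, was the most evenly spread of the 7. It was measured in 11 of the 12 compared classes, with log2 ratios between -0.71 and 0.37. Its levels ran to 51.2 CPM with gluten and 39.5 CPM with HC alone in macrophage-like cells (0.37 [-0.07, 0.81]), 46.1 and 42.2 CPM in mesenchymal-like, 41.1 and 37.9 CPM in endothelial-like, 40.6 and 50.6 CPM in cDC2-like and 39.7 and 50.2 CPM in cDC1-like cells, neighbours whose intervals overlap. In subcluster 9 Myd88 was higher with gluten, on 21 and 16 UMIs (1.26 [0.26, 2.30]). T-like cells gave 28.6 CPM of Myd88 with gluten and 27.8 CPM with HC alone, a log2 ratio of 0.04 [-0.35, 0.42]. Beta-like cells gave 4.87 and 4.29 CPM (0.18 [-0.10, 0.46]), alpha-like cells 7.82 and 7.26 CPM, and delta-like cells 6.60 and 6.49 CPM. Pericyte-like cells had the highest level, 59.8 CPM with gluten and 91.1 CPM with HC alone, on 12 and 15 UMIs.

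Tgm2 was highest in mesenchymal-like cells. It stood at 227.1 CPM [203.4, 252.7] with gluten and 140.0 CPM [121.7, 160.3] with HC alone, a log2 ratio of 0.70 [0.44, 0.95]. The levels do not overlap and the ratio is under 2-fold. It was read in 69.7% of 178 cells with gluten and 67.2% of 134 cells with HC alone, at medians of 7561.5 and 9681.5 UMIs per cell, and in NK-like cells in 0 of 81 and 1 of 70. Thinned to 5342 UMIs the shares were 60.9% and 48.5%, a difference of 12.4 points [-0.40, 24.6]. Macrophage markers summed to 13762 CPM with gluten and 20637 CPM with HC alone in mesenchymal-like cells, beta cell markers to 25486 and 3923 CPM, and their part in these values was not tested.

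Macrophage-like cells gave 145.2 CPM of Tgm2 with gluten and 115.2 CPM with HC alone (0.33 [0.08, 0.59]). Ductal-like cells gave 100.01 and 121.2 CPM, endothelial-like cells 83.4 and 97.7 CPM (-0.23 [-0.59, 0.13]), Schwann-like cells 72.8 and 105.3 CPM and cDC2-like cells 64.4 and 67.3 CPM (-0.06 [-0.45, 0.32]). The intervals of the 2 levels overlap in each of these classes, and that of the ratio excludes 0 in macrophage-like cells alone among those given. cDC1-like cells gave 4 and 1 UMIs, so Tgm2 was near absent from 1 class of dendritic cells and present in the other in either library. T-like, B-like and alpha-like cells gave at most 7 Tgm2 UMIs per library, and cycling cells 0 with gluten and 10 with HC alone.

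In delta-like cells Tgm2 stood at 2.62 CPM (31 UMIs) with gluten and 0.752 CPM (8 UMIs) with HC alone, a log2 ratio of 1.80 [0.65, 3.13], where 2.23% of the class's measured genes were called higher and 0.913% lower. The C1q UMIs in these cells would carry 10.4 and 6.91 Tgm2 UMIs at the ratio of macrophage-like cells. Beta cell markers summed to 208369 CPM with gluten and 304559 CPM with HC alone in these cells, none of the 8 higher with gluten, and their part in the result was not tested. Without cluster 8, whose cells were deep at medians of 21666 and 38244 UMIs, the levels were 4.47 CPM with gluten and 1.54 CPM with HC alone (1.53 [0.21, 3.12]). Beta-like cells gave 23 and 28 UMIs, 0.640 CPM with gluten and 0.458 CPM with HC alone, a log2 ratio of 0.48 [-0.38, 1.33].

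The other genes of the pathway were read from 9 lists of 112 genes, 111 of which were found in the tables. These lists too were chosen with earlier results of these data known. Over 12 classes 94 of 749 measured pairs were higher with gluten (12.6%) and 30 lower (4.01%), against the 2.67% and 2.84% of all pairs. Targets of Toll-like receptor signalling made up 59 of the pairs higher and 9 of those lower, of 112 measured. Inhibitors followed with 18 of 108 higher and 1 lower. Adaptors and proximal signalling genes gave 1 of 216 higher and 6 lower, and the other Toll-like receptors gave 0 of 20 higher and 2 lower. Co-receptors and trafficking factors gave 5 of 103 higher and 2 lower, and other pattern receptors 4 of 71 higher and 3 lower. Around Tgm2, its binding partners gave 6 of 72 higher and 0 lower, the other transglutaminases 1 of 5 higher and 1 lower, and genes linked to coeliac disease 0 of 42 higher and 6 lower.

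In macrophage-like cells 12 of 16 measured targets were higher and 0 lower, where 2.9% and 3.37% of all genes were called. Their median log2 ratio was 1.81, beside -0.08 over all measured genes of the class, and without subcluster 11 the count was again 12 of 16, with a median of 1.74. The neutrophil chemokine Cxcl2 stood at 3679 CPM with gluten and 373.4 CPM with HC alone (3.30 [3.20, 3.40]), Cxcl1 of the same family at 347.3 and 30.04 CPM (3.53 [3.19, 3.89]), and Ccl4, which attracts monocytes and T cells, at 1332 and 223.2 CPM (2.58 [2.44, 2.71]). Ifnb1, interferon beta, gave 36 UMIs with gluten and 2 with HC alone, a log2 ratio of 4.94 [2.98, 8.04]. The adaptors gave 0 of 20 higher or lower, with a median of -0.27, and the co-receptors 0 of 9. Of the other transglutaminases 1 of 2 measured was higher and 1 lower, of the other pattern receptors 2 of 11 higher and 1 lower, and of the other Toll-like receptors 0 of 6 higher and 1 lower. The 3 higher, named after their values were seen, were F13a1 (25 and 9 UMIs, 2.24 [1.10, 3.53]), Nlrp3 (116.0 and 18.6 CPM, 2.64 [2.17, 3.12]) and Clec4e (63.5 and 10.6 CPM, 2.58 [1.96, 3.24]). Lower by the rule were the transglutaminase Tgm1 (16.2 and 38.4 CPM, -1.25 [-1.94, -0.60]), Tlr13, a receptor for bacterial ribosomal RNA (9.72 and 24.0 CPM, -1.30 [-2.22, -0.47]), the chemokine receptor Cxcr3 (9.07 and 21.3 CPM, -1.23 [-2.19, -0.37]) and Nod2, a cytosolic sensor of bacterial cell wall (3.89 and 9.89 CPM, -1.35 [-2.92, -0.03]). The 2 inhibitors higher, chosen here after their values were seen, were Nfkbia (1931 and 790.6 CPM, 1.29 [1.21, 1.37]) and Tnfaip3 (195.7 and 68.8 CPM, 1.51 [1.24, 1.78]), both also targets of NF-kappa-B. The immediate early and acinar sums of macrophage-like cells given above were higher with gluten beside these genes.

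In cDC2-like cells 9 of 12 measured targets were higher and 0 lower, with a median of 1.62 beside -0.14 over all genes. The 4 named by rule were Cxcl1 (78 UMIs with gluten and 1 with HC alone, 6.35 [3.83, 11.67]), Cxcl2 (423.8 and 29.5 CPM, 3.85 [3.44, 4.28]), Ccl2 (48.8 and 3.89 CPM, 3.65 [2.54, 5.01]) and Ccl4 (171.8 and 37.3 CPM, 2.21 [1.82, 2.61]). Of all genes 5.6% were called lower, among them 3 of 19 adaptors, the transcription factor Irf3 (20.3 and 41.1 CPM, -1.02 [-1.64, -0.42]), Tab1 (4 and 16 UMIs, -1.94 [-3.98, -0.31]) and Ticam2 (12 and 27 UMIs, -1.11 [-2.22, -0.08]). In cDC1-like cells 6 of 11 targets were higher, led by Cxcl10 (421.4 and 39.1 CPM, 3.43 [2.97, 3.93]), Il1b (139.6 and 26.0 CPM, 2.42 [1.81, 3.08]), Cxcl2 (108.9 and 21.4 CPM, 2.35 [1.67, 3.08]) and Ptgs2 (41.0 and 5.58 CPM, 2.88 [1.60, 4.43]). Lower there, where 2.66% of all genes were called lower, were Ccl5 (315.1 and 721.7 CPM, -1.20 [-1.41, -0.99]), Il12b (53.8 and 113.5 CPM, -1.08 [-1.62, -0.56]) and Il15ra (29.5 and 63.2 CPM, -1.10 [-1.85, -0.40]). The class was made up differently in the libraries, with mature dendritic-like cells at 10 of its 65 cells with gluten and 22 of its 74 with HC alone, and the part of this in the values was not tested.

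**Figure D5:**
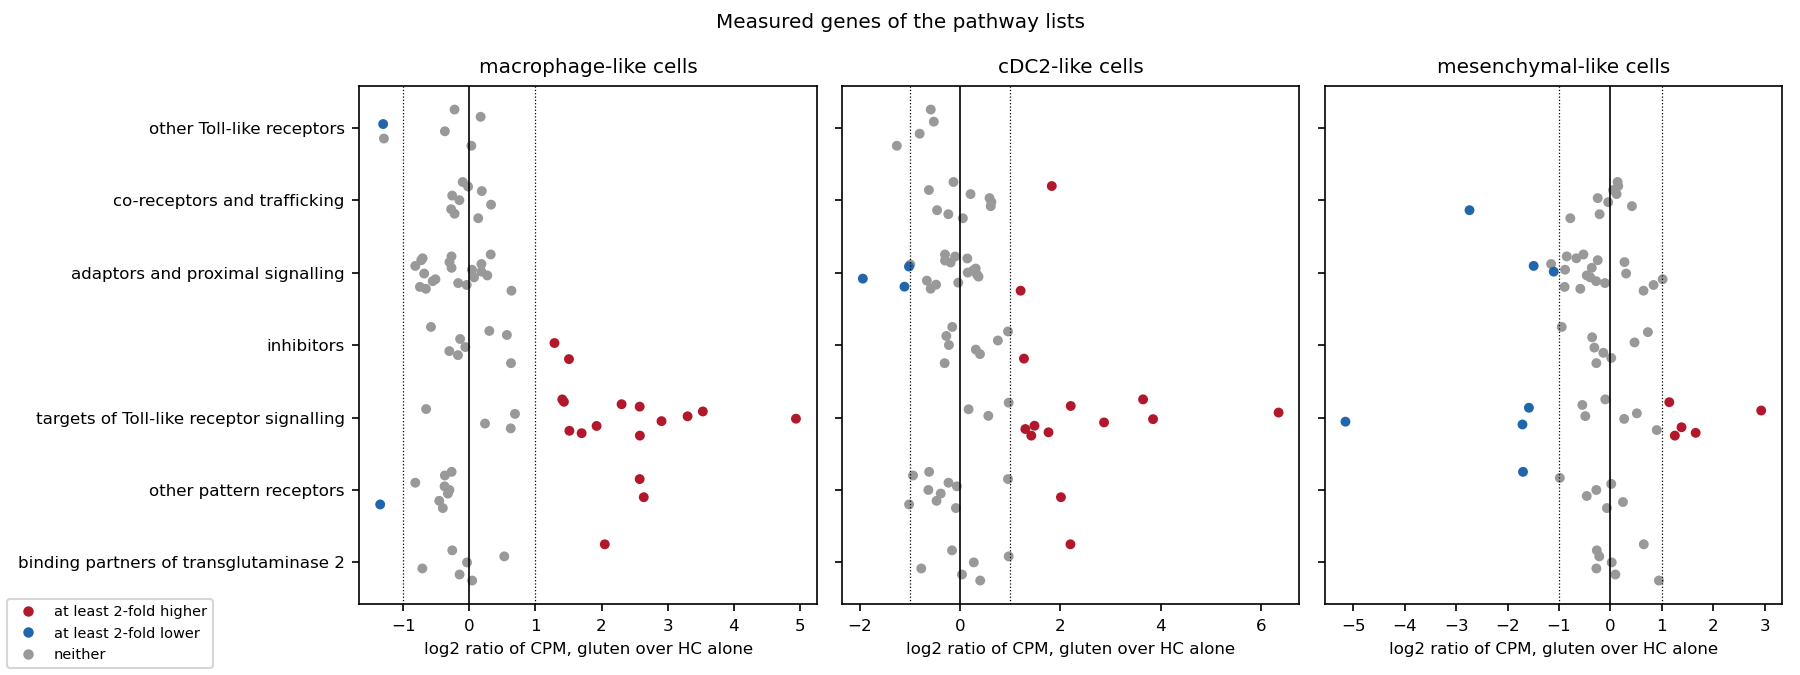
Log2 ratio of CPM, gluten over HC alone, of each measured gene of 7 pathway lists in macrophage-like, cDC2-like and mesenchymal-like cells, with dotted lines at 2-fold. Red and blue points are at least 2-fold higher or lower with gluten with an interval that excludes 0. The targets hold 12 red points in macrophage-like cells and 9 in cDC2-like cells, and both red (5) and blue (3) points in mesenchymal-like cells.

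Mesenchymal-like cells, where Tgm2 was highest, gave 5 of 14 targets higher and 3 lower, where 3.3% and 5.39% of all genes were called. Higher were Cxcl1 (527.3 and 69.0 CPM, 2.93 [2.64, 3.24]), the prostaglandin synthase Ptgs2 (69.8 and 22.1 CPM, 1.66 [1.08, 2.27]), the cytokine Il6 (33.2 and 12.7 CPM, 1.38 [0.59, 2.23]) and Tnf (22.4 and 9.38 CPM, 1.25 [0.31, 2.27]). Lower were Il12b (1 UMI with gluten and 36 with HC alone, -5.15 [-10.50, -2.58]), the co-receptor Ly86 (16.9 and 113.2 CPM, -2.74 [-3.41, -2.13]), Ccl5 (157.3 and 471.6 CPM, -1.58 [-1.80, -1.37]) and Il1b (28.5 and 93.1 CPM, -1.71 [-2.24, -1.20]). The macrophage marker sums given above stand beside these genes of leukocytes. Of the binding partners of transglutaminase 2, 0 of 7 were apart in mesenchymal-like cells.

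Endothelial-like cells gave 6 of 10 targets higher and 0 lower, where 2.31% and 1.95% of all genes were called. These included Cxcl2 (79.3 and 16.1 CPM, 2.30 [1.61, 3.05]), Cxcl1 (244.9 and 80.7 CPM, 1.60 [1.28, 1.93]), Il1b (42 and 6 UMIs, 2.35 [1.11, 3.87]) and Ccl2 (22 UMIs with gluten and 0 with HC alone, with a lower bound of 1.99 for the log2 ratio). Ly86 was lower (16 and 24 UMIs, -1.04 [-2.05, -0.07]). Immediate early genes summed to 17604 CPM with gluten and 8792 CPM with HC alone in endothelial-like cells (17 of 18 higher), beta cell markers to 19590 and 4543 CPM (8 of 8) and acinar markers to 613.2 and 60.6 CPM (15 of 15), with 70 and 2 UMIs of C1q. The 12 macrophage markers summed to 658.4 and 968.9 CPM there (7 of 12 higher, 2 at 0 with gluten and 6 at 0 with HC alone). Their part in the counts was not tested. B-like cells gave 3 of 6 targets higher, where 2.39% of all genes were called, namely Ccl5 (62.3 and 8.32 CPM, 2.91 [2.33, 3.53]), Cxcl10 (36.7 and 11.8 CPM, 1.64 [1.09, 2.21]) and Ccl3 (18 and 6 UMIs, 2.09 [0.70, 3.71]), as well as the inhibitor Tnfaip3 (105.1 and 33.6 CPM, 1.65 [1.33, 1.97]). Cxcr3 was lower in B-like cells (5.70 and 18.7 CPM, -1.71 [-2.66, -0.86]). Ccl5 leads a T-like cluster, and T cell markers summed to 147.1 CPM with gluten and 65.4 CPM with HC alone in B-like cells, all 10 higher. Immediate early genes summed to 6534 and 5136 CPM there (15 of 18 higher), and the part of either list was not tested. In beta-like cells, where 2.08% of all genes were called higher and 0.923% lower, Cxcl1 (2.67 and 0.278 CPM, 3.26 [2.51, 4.10]), Tnfaip3 (8.95 and 1.90 CPM, 2.24 [1.93, 2.56]), Nfkbiz (54.1 and 16.1 CPM, 1.75 [1.64, 1.86]) and Nfkbia (227.1 and 74.6 CPM, 1.61 [1.55, 1.66]) were higher and Ccl2 (0.334 and 2.24 CPM, -2.75 [-3.74, -1.90]) was lower. Immediate early genes summed to 9535 CPM with gluten and 3035 CPM with HC alone in beta-like cells, all 18 higher, and acinar markers to 81.2 and 16.1 CPM, all 15 higher, and their part in these values was not tested.

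Across the 24 sums of 12 classes in 2 libraries, which share libraries and depths, the 3 genes of 13110 with the pattern most like each receptor were found by Pearson's r of log2(CPM + 1), given as a description. For Tlr2 they were Hebp1 (0.914), Tctex1d2 (0.902) and Lgmn (0.901), for Tlr4 Slc7a7 (0.930), Pltp (0.869) and Stard9 (0.867), and for Tlr7 Fcgr2b (0.915), Cyp4f18 (0.890) and Cd72 (0.883). For Cd14 they were Grn (0.937), Csf2rb2 (0.930) and Hebp1 (0.928), for Myd88 Icam1 (0.967), Vim (0.957) and Lipa (0.957), and for Tgm2 Dab2 (0.9501), Cd302 (0.948) and Ifitm3 (0.940). Among the genes studied, without Tlr9, which was under the minimum of 100 UMIs for this comparison, Cd14 was most like Tgm2 (0.910) and Tlr2 (0.873), and Myd88 was least like Tlr7 (0.329) and Tlr2 (0.344). The 12 classes leave out ductal-like, pericyte-like and pDC-like cells, where Cd14, Myd88 and Tlr7 were highest.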

How the data were processed

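Single-cell RNA sequencing libraries of pooled NOD islet cells, 1 per diet, were analysed from the UMI counts per gene and barcode that the authors deposited. Cell Ranger 4.0.0 and mm10 are named in the labels, per the submitters' processing notes. The calling of barcodes and the use of strand in counting: not given in the sources used here.

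The 7 genes and the gene lists were chosen with earlier results of these data known. Barcodes needed 500 UMIs or more, 200 genes or more and a mitochondrial share of UMIs no higher than 20%, which kept 7577 with gluten and 7565 with HC alone. Scrublet's own threshold marked 0.066% and 3.53% of them as doublets, so the 6% with the highest score in each library were left out instead. Cells of both libraries were clustered together with scanpy 1.11.5 (Python 3.11.15) on counts scaled to 10000 per cell. From 2000 variable genes, the genes studied, the pathway genes, acinar markers and genes raised in acinar-rich barcodes were taken out. The settings were 30 principal components, 15 neighbours and Leiden resolution 1 (0.8 for subclusters). Clusters were named from marker lists of 26 cell types, and 122 cells with gluten and 11 with HC alone stayed unnamed. The naming rule, the immediate early list, the C1q comparison, the myeloid subclusters, their 15-cell minimum and the 3 alternatives that leave out a cluster were set after seeing the data.

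UMIs were summed per class and library and divided by the class total, as CPM. Intervals at 95% (SciPy 1.17.1) were exact Poisson for a level, conditional binomial for a log2 ratio, Clopper-Pearson for a share and Newcombe for a difference of shares, and cover counting error only. A pair was measured with at least 20 UMIs over both libraries. It was called higher or lower at 2-fold or more with an interval that excludes 0. A count of 0 allows up to 3 UMIs or cells. For shares, cells were thinned to the 25th percentile of UMIs in the shallower library of the class. Deeper libraries give narrower intervals, and kept cells held 78206522 UMIs with gluten and 105958284 with HC alone. With 1 library per diet, diet, library and mice cannot be told apart and there was no test.

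All 7 genes are named. Of the other lists, up to 4 genes in each direction per class were named in 7 classes, by the interval bound nearer to 0. Clec7a was not matched in the tables. The calculation was tested on simulated data. Alternatives changed the scaling (edgeR 4.0.16 TMM factors, median-of-ratios factors, totals without hormone, acinar and mitochondrial genes), filters, doublets, clustering and gating.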

Additional observations from a re-analysis of the deposited data

Results flagged for a closer look

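Cd14 was also read in the barcodes that the filters on cells and doublets left out, 1078 with gluten and 647 with HC alone, which enter no comparison. It stood there at 26.3 CPM (265 UMIs) with gluten and 11.1 CPM (122 UMIs) with HC alone, a log2 ratio of 1.24 [0.93, 1.56]. These barcodes hold shallow cells, cells with many mitochondrial UMIs and likely doublets of all classes together.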

How the results depend on the processing

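Cd14 in macrophage-like cells stayed at least 2-fold higher with gluten under 14 of 14 other settings (log2 ratio 1.16 to 1.32), and was 0.98 without subcluster 11, a setting chosen after seeing the data. Cd14 and Tlr2 in cDC2-like cells did so in the 10 settings that kept this class. Cd14 in cDC1-like cells, Tgm2 in delta-like cells and Tlr4 in B-like cells kept their call in 13 of 14, losing it at a minimum of 50 UMIs, and Tlr2 in T-like cells in 10 of 14 (1.18 to 1.78). Of the gene and class pairs, 6 were higher, against 3 at a minimum of 50 UMIs, 3 under the stricter filter on cells, which left 10 classes, and 11 at 1.5-fold. The 1 pair lower became 0 at 50 UMIs and 2 with doublets kept. Pathway pairs lower numbered 30, and 65 at 1.5-fold. Without thinning, the differences in share of macrophage-like cells, gluten minus HC alone, were -13.4 points for Tlr2, -5.42 for Cd14, -11.0 for Myd88 and -22.7 for Tgm2. Cd14 and Tlr2, whose thinned shares are given above, both turned their direction once cells were thinned and shallower cells left out. For Tlr2 the interval of the thinned difference did not exclude 0. Macrophage-like cells with gluten were the shallower. TMM scaling moved all ratios by 0.14 in B-like, 0.15 in cDC2-like and 0.11 in mesenchymal-like cells, and leaving out hormone genes moved those of alpha-like and delta-like cells by -0.10 and -0.11. No paired analysis was possible because each diet has 1 library.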
